A study of Sus scrofa with 4 samples.

Results

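DNAJB1 (ENSSSCG00000013784) was 1 of 22658 features listed in the longissimus dorsi (LD) muscle libraries of Laiwu pigs, a Chinese breed known for its intramuscular fat. It was chosen from these same values, for mean levels that were lower at each later labelled age and for a wide spread among the libraries labelled 60 d. Its levels are therefore given as a description without a test. RNA was sequenced from LD muscle of 12 castrated male pigs of the pure breed, labelled wild type, that were kept under like housing and feeding. There were 3 pigs at each of 4 ages, namely 60, 120, 240 and 400 d, and each pig gave 1 library. Libraries are numbered 1 to 3 within an age only to name them. The muscle was ground whole, so a change in the makeup of cells and a change in RNA per cell cannot be told apart.

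DNAJB1 encodes a J-domain protein of the HSP40 family. Such proteins bind unfolded clients and stimulate the ATPase of HSP70 chaperones, so that the client is held and refolded, while HSP110 proteins such as HSPH1 exchange the nucleotide of HSP70. DNAJB1 is a target of the heat shock factor HSF1 and is transcribed strongly after heat and other protein-damaging stress, together with HSPA1A, HSPA1B, HSPH1 and BAG3. In skeletal muscle, chaperones of this network act on the folding and the turnover of sarcomere proteins.

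The ages themselves are in doubt. A gene list published with the data assigns other ages to the same FPKM values. Means listed there for 60, 120, 240 and 400 d were closest to those of the libraries labelled 400, 240, 60 and 120 d. The median absolute log2 difference was 0.0198 to 0.0200 for these matches, over 203 to 1017 genes, and at least 0.495 for the next closest age. Labelled ages are used here, and the order under the listed ages is given beside each result it turns. A pair of listed ages compares other libraries than the same pair of labelled ages. The paper itself names DNAJB1 among the genes most strongly up-regulated from 120 to 240 d, the opposite of the labelled ages. Which of the 2 sets is right was not tested.

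Total counts of the libraries ran from 9713813 to 13325327. The tissue was checked by its markers, of which 3 of 12 were matched. DES, the intermediate filament protein of muscle, and TNNT1, the slow troponin T, were high in all 12 libraries, at 2000 to 4558 and at 1564 to 4440 FPKM. ACTA1, the skeletal muscle actin, was listed at 0 in 7 libraries, including all 3 of 60 d, and was between 33096 and 57332 FPKM in the others. It is thus no check of the tissue in those 7 libraries. The largest feature held 3.07 to 4.20% of the counts in them and 5.64 to 8.57% in the libraries with an ACTA1 level. Why ACTA1 was at 0 was not tested. The summed FPKM of 60 d library 1 was 1.39 times the median of the libraries, against 0.840 to 1.07 times in the other libraries. For this reason a count scaled by edgeR's TMM factor (TMM CPM) is given beside the deposited FPKM in several comparisons.

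The files place DNAJB1 on the minus strand of chromosome 2, at chr2:65176578-65184644 of Sscrofa10.2, with a listed length of 6560 bases. No other listed feature overlapped it, and 8 features lay within 50 kb. The nearest, ENSSSCG00000013780, was 3881 bases away on the opposite strand, and its TMM CPM varied 1.91-fold over the 12 libraries. NDUFB7, a subunit of respiratory complex I, lay 6623 bases away and varied 2.97-fold in TMM CPM. DNAJB1 varied 28.6-fold on the same scale, and neither of these neighbours had a range as wide.

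At 60 d, DNAJB1 stood at 439, 26.6 and 135 FPKM in libraries 1, 2 and 3, on 5619, 530 and 1912 counts. The highest of the 3 was 16.5 times the lowest (14.9 times in TMM CPM). Library 1 held the highest level of all 12 libraries, whereas library 2 lay below every library of 120 d. The mean was 200.4 ± 214 FPKM (SD, n = 3), with a coefficient of variation of 107%. Among 11373 features that averaged 1 FPKM or more, 179 (1.57%) had a coefficient of variation at 60 d as large as this or larger, and the median was 26.6%.

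At 120 d, the 3 libraries were at 98.5, 50.9 and 77.6 FPKM on 1582, 950 and 1179 counts, with a mean of 75.7 ± 23.9 FPKM (SD, n = 3). They lay inside the range of the 60 d libraries. At 240 d the values were 14.0, 17.8 and 12.9 FPKM, on 258, 308 and 277 counts, and the mean was 14.9 ± 2.56 (SD, n = 3). At 400 d they were 8.85, 11.2 and 15.3 FPKM, on 296, 224 and 351 counts, with a mean of 11.8 ± 3.25 (SD, n = 3). The ranges of 240 and 400 d overlapped each other, and both lay below the whole range of 60 and of 120 d. With 224 counts in the lowest library, counting error was at most 6.68%, so it was small against the spread between pigs at every age.

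**Figure D1:**
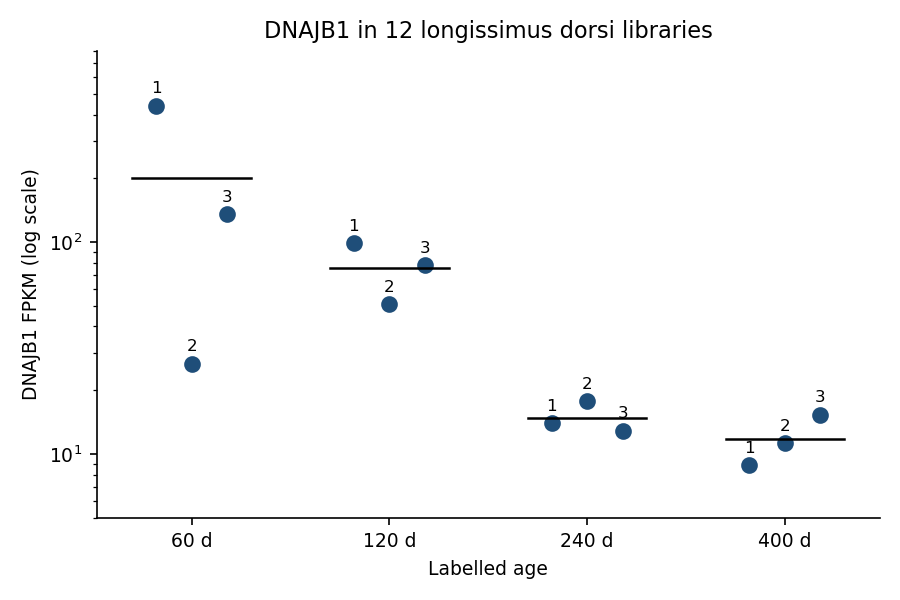
DNAJB1 FPKM (log axis) in each of the 12 libraries by labelled age, with numbers naming the library within its age and horizontal lines at the mean of the 3 libraries. The 60 d libraries reach from 26.6 to 439 FPKM, while the 6 libraries of 240 and 400 d lie between 8.85 and 17.8 FPKM.

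Expressed as log2 ratios of mean FPKM with their standard errors, DNAJB1 differed by -1.41 ± 0.93 from 60 to 120 d, by -2.35 ± 0.30 from 120 to 240 d and by -0.33 ± 0.27 from 240 to 400 d. The first ratio rested on 1 pig, since it was -0.10 without 60 d library 1. The last was within its error and came to -0.016 in TMM CPM. Between 120 and 240 d the level was 5.09 times lower, and every way of leaving out a library gave between -2.57 and -2.11. From 60 to 400 d the ratio was -4.09 ± 0.92 in FPKM, -3.52 in TMM CPM and -2.78 without 60 d library 1.

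These ratios took part in the choice of the gene, and their background is given for scale only. All libraries of the later age lay below all of the earlier age for 18.4% of features tested from 120 to 240 d, for 21.8% from 120 to 400 d, for 17.3% from 60 to 240 d and for 21.1% from 60 to 400 d. Means that were lower at each labelled step were found for 1385 of 11373 features (12.2%). Under the listed ages DNAJB1 was at 11.8, 14.9, 200.4 and 75.7 FPKM at 60, 120, 240 and 400 d, a log2 ratio of 2.68 from the youngest to the oldest and of 3.75 from 120 to 240 d. The order of the levels over age therefore turned with the ages used, while the spread within each set of 3 libraries did not.

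DNAJB1 ranked 234th among all features by FPKM in 60 d library 1, 497th in library 3 and 1992nd in library 2. In 400 d library 1 it ranked 4330th. The unit mattered for these comparisons, as 1 CPM of DNAJB1 (its count scaled to the library total) was given 0.763 FPKM in 60 d library 1 and 0.399 FPKM in 400 d library 1. Ratios in FPKM between these ages are thus larger than those in counts. The listed length of 6560 bases does not give these values of FPKM per CPM, and the reason was not tested.

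Other features were compared with DNAJB1 within ages. The age mean of log2(FPKM + 0.1) was removed from each of the 11372 other features that averaged 1 FPKM or more, and Pearson's r with DNAJB1 was taken over the 12 libraries. It is a description, since the points share libraries and depth. The libraries labelled 60 d carried 90.3% of the within-age sum of squares of DNAJB1, with 49.6% in library 2 and 40.2% in library 1, so the likeness was set mainly by the contrast of those libraries. The value of r was at least 0.9 for 8 features (0.0703%) and at least 0.8 for 86, while it was at most -0.9 for 5 and at most -0.8 for 85. The median over all features was near 0.

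The 15 features closest to DNAJB1 included 7 with a symbol. TPM2, the beta-tropomyosin of the thin filament, had an r of 0.93, MTHFD1, an enzyme of folate metabolism, 0.92, and SSBP1, which binds single-stranded mitochondrial DNA, 0.91. CACNG8, an auxiliary subunit of ion channels, and WDR18, which takes part in ribosome maturation, had an r of 0.90. C1QTNF3, a secreted protein of the C1q and TNF related family, had an r of 0.89 and SHARPIN, a subunit of the linear ubiquitin ligase, of 0.88. None of the heat shock genes examined here was among the 15. In TMM CPM 10 of the 15 remained among the 15 closest, while r came to 0.39 for ENSSSCG00000027234, from 0.88, and to 0.51 for ENSSSCG00000014821, from 0.90.

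The likeness was one of direction more than of size. At 60 d, TPM2 was at 6113, 2735 and 4278 FPKM in libraries 1, 2 and 3, which made library 1 only 2.24 times library 2. Of the 14 features with a value in both libraries, 9 had a ratio of library 1 to library 2 below 3, with a median of 2.04, against 16.5 for DNAJB1. CACNG8 was at 3.21, 0.153 and 0.993 FPKM, a ratio of 21.0, and a feature newly assembled by the authors (pig_newGene_50) was at 20.8, 1.75 and 4.01 FPKM, a ratio of 11.9. One feature without a symbol, ENSSSCG00000029118, was at 15.8, 0 and 4.27 FPKM at 60 d and was listed at 0 in the other 9 libraries. The mean FPKM was lower at each labelled step for 3 of the 15, namely TPM2, MTHFD1 and ENSSSCG00000027234, and for 12.2% of the 11373 features.

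Opposite to DNAJB1 within ages, with the lowest r of all, were ENSSSCG00000022860 (r = -0.95), ANKS1A (r = -0.94), an adaptor with ankyrin repeats, ENSSSCG00000022707 (r = -0.94), ENSSSCG00000026405 (r = -0.91) and SWT1 (r = -0.90), an RNA endonuclease. ANKS1A was at 1.23, 3.81 and 2.07 FPKM in the 60 d libraries 1, 2 and 3, the mirror order of DNAJB1. Without the 60 d libraries r was -0.69 to -0.30 for the first 4 of these features and turned to 0.33 for SWT1.

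Of the 86 features with an r of at least 0.8, 85 had their highest 60 d level in library 1 and all 86 their lowest in library 2, while library 1 was highest for 4511 and library 2 lowest for 3079 of all 11372. This follows from how r was computed and says only which libraries set it. Outside the 60 d libraries the likeness did not hold at this level. Over the 9 libraries of 120, 240 and 400 d, none of the 15 features remained among the 15 closest, and for the 14 with a level above 0 there r ran from 0.00 to 0.80 with a median of 0.42. Over those 9 libraries 47 features had an r of at least 0.9, among them 1 heat shock gene, FKBP5, whose r over all 12 libraries was -0.50.

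**Figure D2:**
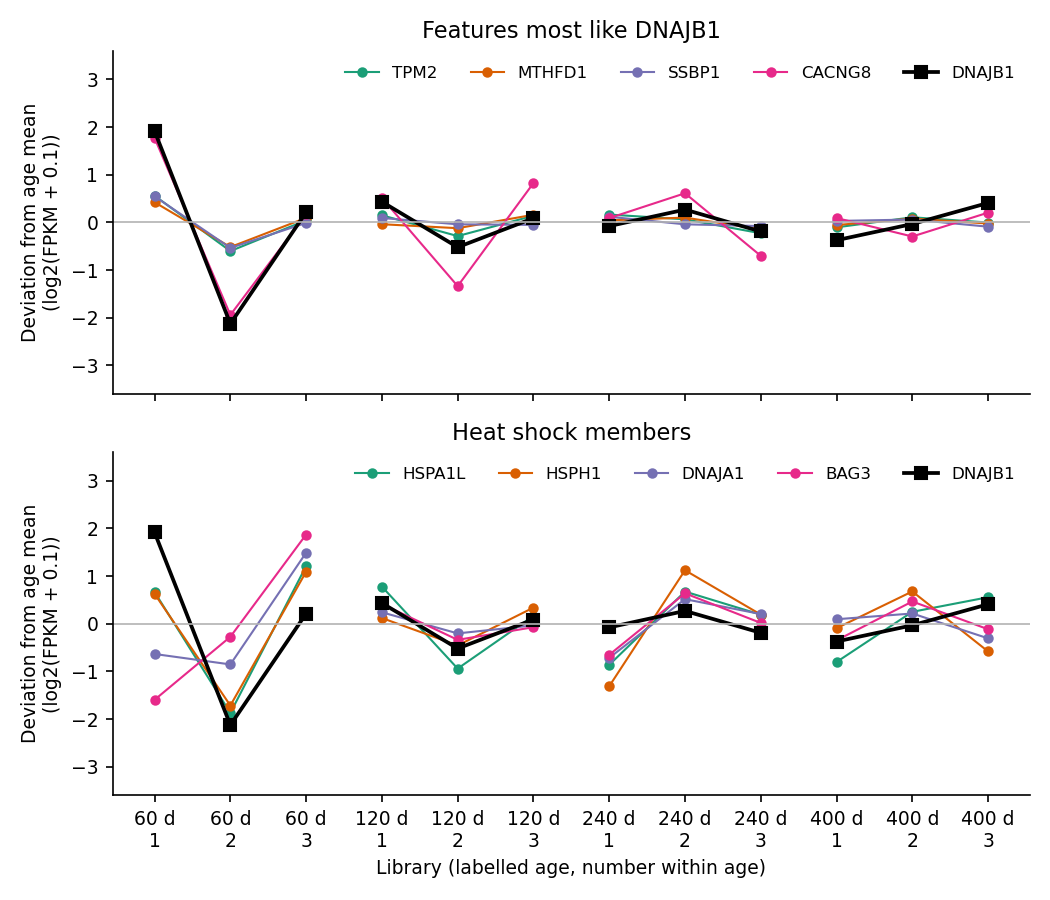
Deviation of log2(FPKM + 0.1) from the mean of the labelled age in each library, for DNAJB1 (black squares) with 4 of the features most like it (upper panel) and with 4 heat shock members (lower panel). DNAJB1 and the features of the upper panel are high in 60 d library 1 and low in library 2, whereas the 4 heat shock members are highest in 60 d library 3.

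The network around DNAJB1 was examined through 72 heat shock genes: other J-domain proteins, HSP70 and HSP110 proteins, HSP90 proteins, chaperonins, small heat shock proteins, cofactors and heat shock factors. A symbol was matched for 53, and 51 had a mean of at least 1 FPKM. Their r with DNAJB1 had a median of 0.02 and ranged from -0.51 to 0.77, against a median near 0 over all features. It was at least 0.5 for 6 of 51 (11.8%), and the same held for 10.9% of all features. These 6 were HSPA1L (0.77), CDC37 (0.66), which brings kinases to HSP90, HSPH1 (0.62), the polyubiquitin gene UBB (0.62), STUB1 (0.59), the ubiquitin ligase that acts on HSP70 clients, and DNAJB11 (0.59), a J-domain protein of the endoplasmic reticulum. CDC37, UBB and STUB1 overlap other listed features.

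**Figure D3:**
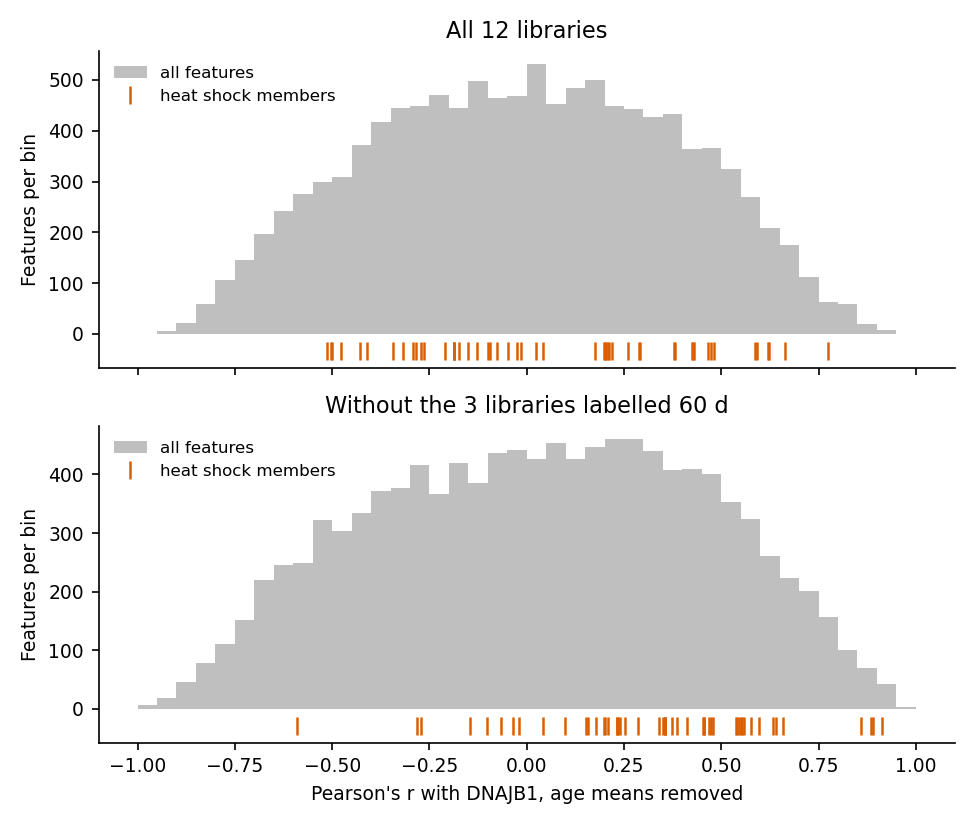
Number of features by Pearson's r with DNAJB1 after removal of age means, in bins of r, over all 12 libraries (upper panel) and without the libraries labelled 60 d (lower panel), with heat shock members as ticks. The ticks spread from -0.51 to 0.77 with a median of 0.02 in the upper panel, and their median is 0.36 in the lower panel.

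The heat shock genes and DNAJB1 parted in the 60 d libraries. Library 3 was the highest of the 3 for 34 of 51 members (66.7%), library 1 for 11 and library 2 for 6, whereas library 3 was the highest for 32.0% of all 11429 features that averaged 1 FPKM or more at 60 d. In TMM CPM, library 3 was the highest for 36 of 51 members and for 35.9% of all features. All 8 HSP70 and HSP110 members and 8 of 9 chaperonins were highest in library 3. DNAJB1 was highest in library 1, at 3.25 times library 3 in FPKM and 3.10 times in TMM CPM. None of 53 members had as large a ratio on either scale, and the next was 2.08 in FPKM for SIL1, a nucleotide exchange factor of the endoplasmic reticulum. Because DNAJB1 was picked for its spread among these libraries, its rank in this ratio is a description only.

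Among the HSP70 genes, the feature matched to HSPA1L was at 9544, 1647 and 13941 FPKM in the 60 d libraries 1, 2 and 3. Copies of HSP70 are near-identical in sequence and HSPA1A and HSPA1B were not matched, so its identity is uncertain. HSPH1, the HSP110 nucleotide exchange factor, was at 172, 33.8 and 237 FPKM. Both shared the low level of library 2 with DNAJB1 but had library 3 on top. For every 100 TMM CPM of HSPA1L there were 3.50 of DNAJB1 in library 1, 1.32 in library 2 and 0.733 in library 3. In the other 9 libraries this figure was between 1.90 and 6.21, and libraries 2 and 3 of 60 d lay below that range.

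Further members departed more from DNAJB1. DNAJA1, a J-domain partner of HSP70 in the cytosol, was at 143, 123 and 623 FPKM in the 60 d libraries. DNAJB4, a J-domain protein of the same subfamily as DNAJB1, was at 133, 136 and 415 FPKM. BAG3, which links HSP70 to autophagy in muscle, was at 100.5, 251 and 1112 FPKM, and HSPB8, its small heat shock partner, at 464, 672 and 2909 FPKM. In these 4 genes library 1 was 0.400 to 1.16 times library 2 and library 3 stood above both, while DNAJB1 separated library 1 from library 2. HSF1, the factor that drives the heat shock response, was at 37.1, 36.1 and 40.7 FPKM. HSF2 was at 4.21, 18.4 and 46.1 FPKM.

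**Figure D4:**
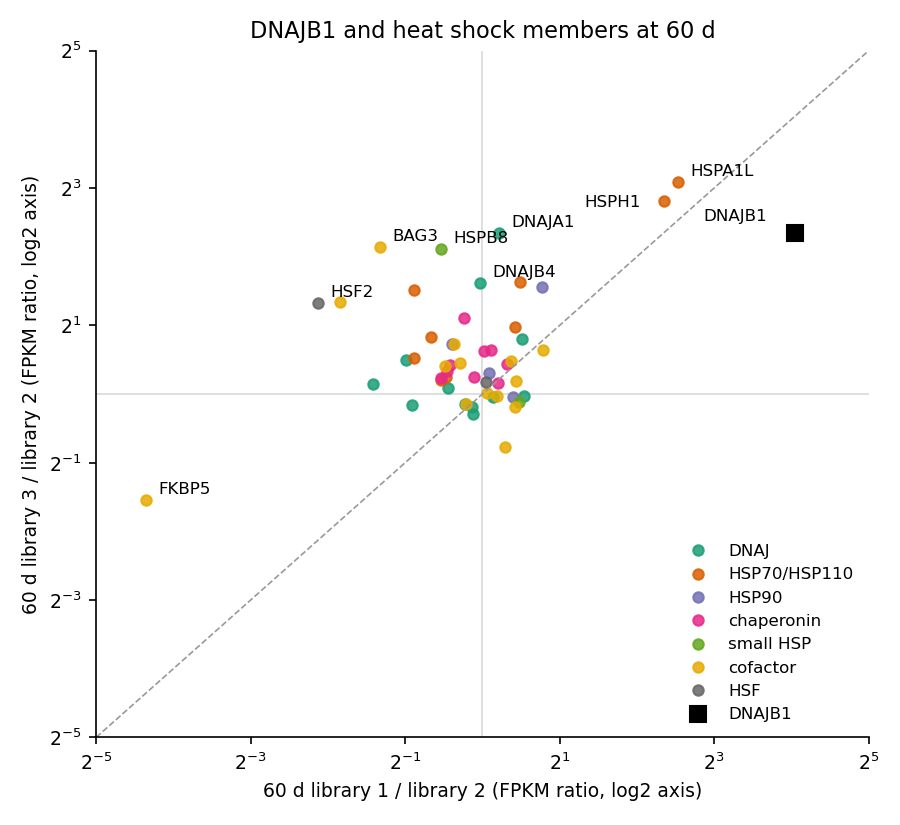
FPKM of 60 d library 1 (horizontal) and library 3 (vertical) as ratios to 60 d library 2, on log2 axes, for DNAJB1 and heat shock members by class, with the line of equal ratios dashed. DNAJB1 lies farthest to the right, at 16.5 and 5.07, below the dashed line, while 34 of the 51 members with a mean of at least 1 FPKM are highest in library 3.

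Over the libraries of 120, 240 and 400 d the members lay closer to DNAJB1. Their median r was 0.36, against 0.04 over all features, and it was at least 0.5 for 15 of 51 (29.4%), against 15.3% of all features. The 5 closest were FKBP5 (0.91) and FKBP4 (0.66), immunophilin partners of HSP90, DNAJA3 (0.89), the mitochondrial J-domain protein, DNAJB5 (0.89) and HSPA1L (0.86). Over all 12 libraries r was -0.50 for FKBP5, 0.26 for FKBP4, -0.09 for DNAJA3, -0.10 for DNAJB5 and 0.77 for HSPA1L. DNAJB1 varied little within these ages, by 1.38 to 1.94 times between the highest and the lowest library, and 9 libraries are few for such a measure.

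Across ages, the other heat shock members were tested with the quasi-likelihood test of edgeR on counts, with Benjamini-Hochberg adjustment over all features and a call at an adjusted p of 0.05 or below. From 60 to 400 d, 12 of 52 members tested were called (23.1%), 8 lower and 4 higher at 400 d, where 14.1% of all features were called, 7.18% lower and 6.88% higher. There were 8 lower and 1 higher call with no count filter, and 8 lower and 2 higher with DESeq2 size factors in edgeR. The median log2 fold change was -0.39 for the members and -0.03 for all features. Under the listed ages all 12 turned their direction. That contrast set the libraries labelled 400 d against those labelled 120 d, so the libraries labelled 60 d had no part in it.

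The 8 that fell included 5 of 9 HSP70 and HSP110 members, where 7.18% of all features were called lower. HSPA1L fell from 8377 ± 6230 to 343 ± 146 FPKM (SD, n = 3), with a log2 fold change of -4.58 ± 0.79 (SE) and an adjusted p of 0.018 by edgeR. HSPH1 fell from 147 ± 104 to 14.5 ± 6.52 FPKM (log2 fold change -3.32 ± 0.68), HSPA4L, its relative with at most 1.45 FPKM in any of these libraries, by 2.30 ± 0.57 on the log2 scale and HSPA13, a microsomal HSP70, by 1.42 ± 0.39. HSPA5, the HSP70 of the endoplasmic reticulum, fell by 1.17 ± 0.27 on the log2 scale. For these 5 genes the 3 libraries of 60 d lay above all of 400 d, as they did for DNAJB1 and for 21.1% of all features tested. The 5 genes are those called lower, which favours such a separation.

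Of 12 other J-domain genes, 3 were called lower and 2 higher, where 7.18% and 6.88% of all features were. DNAJA1 fell from 296 ± 283 to 30.2 ± 5.45 FPKM (SD, n = 3; log2 fold change -3.27 ± 0.64) and DNAJB4 from 228 ± 162 to 38.7 ± 8.80 FPKM (-2.53 ± 0.48), while DNAJB11 fell by 0.98 ± 0.25 on the log2 scale. DNAJA2, a cytosolic partner of HSP70, rose by 0.70 ± 0.19 and DNAJC7, which carries TPR domains, by 0.66 ± 0.18. HSPB6, a small heat shock protein of muscle, rose by 0.82 ± 0.22 and ST13, an HSP70 cofactor, by 0.67 ± 0.18. The adjusted p of the 12 ran from 0.018 to 0.0495 by edgeR, and none of the 12 was called once any 1 of the 400 d libraries was left out. Of all features, only 8, 0 and 148 were called without 400 d library 1, 2 or 3. Without 60 d library 1, 2 or 3 there were 13, 7 and 5 members called lower and 1, 0 and 0 called higher. Of all features, 1004, 595 and 504 were then called lower and 888, 432 and 613 higher. DNAJB4, HSPB6 and ST13 overlap other listed features, and the library kit does not mark strand.

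The remaining classes had no call from 60 to 400 d, where 14.1% of all features were called. None of 4 HSP90 members, 9 chaperonins or 2 heat shock factors passed the edgeR test, with 1 of each class at an unadjusted p under 0.05. DESeq2 called 1 HSP90 member, no chaperonin and 1 heat shock factor, each lower at 400 d. BAG3 had a log2 fold change of -2.06 ± 0.78 with an adjusted p of 0.107 by edgeR, and HSF1 one of 0.21 ± 0.18 with an adjusted p of 0.431.

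**Figure D5:**
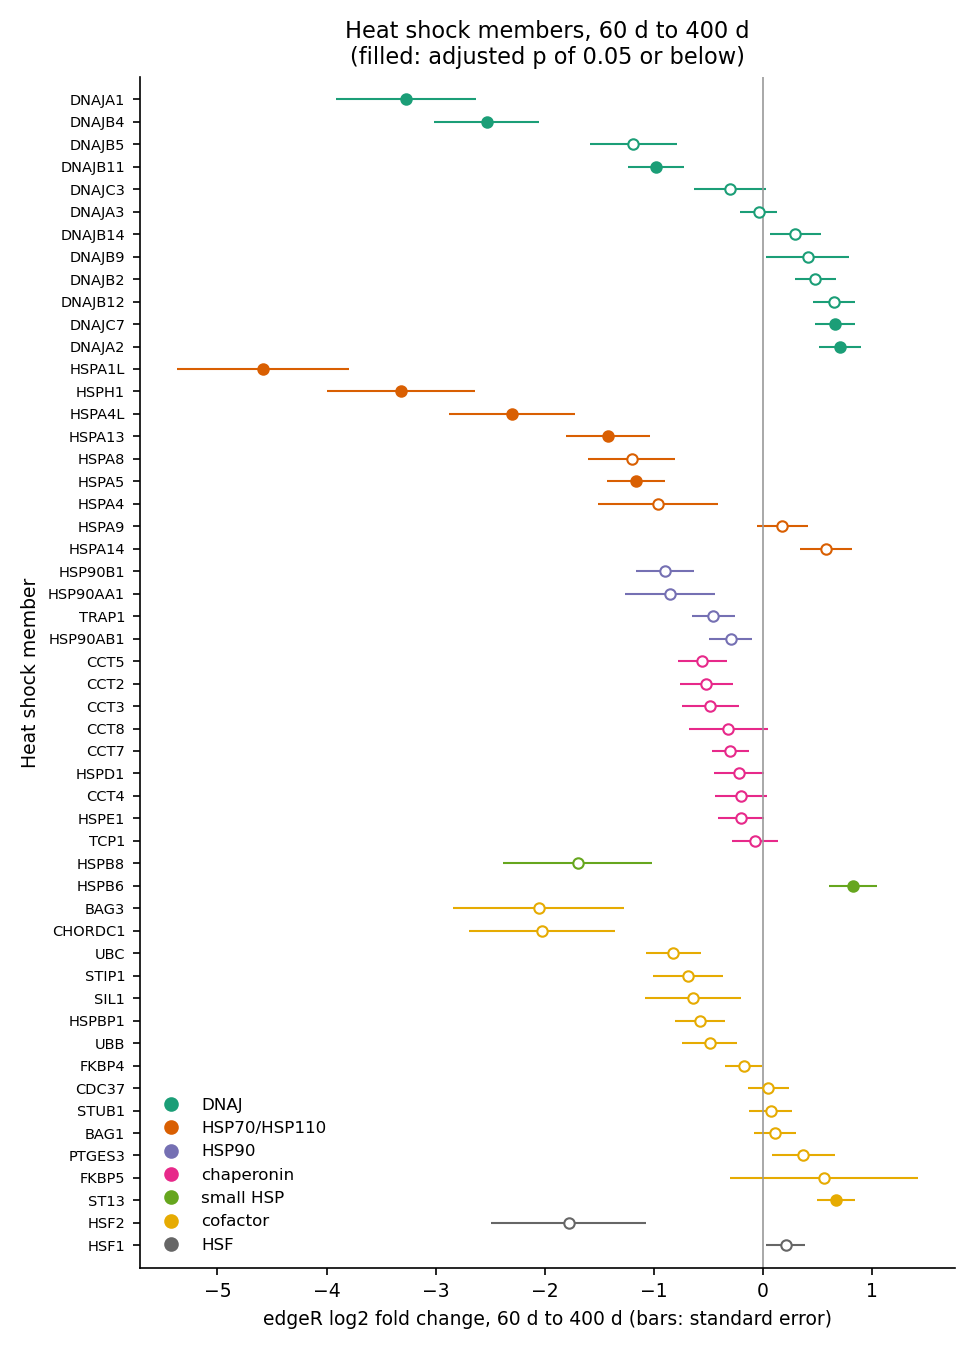
Log2 fold change from 60 to 400 d by edgeR for the 52 heat shock members tested, with standard errors as bars, coloured by class and filled where the adjusted p was 0.05 or below. HSPA1L (-4.58), HSPH1 (-3.32) and DNAJA1 (-3.27) lie farthest to the left, and the 4 filled points on the right are DNAJA2, DNAJC7, HSPB6 and ST13.

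Over the step at which DNAJB1 differed most clearly, from 120 to 240 d, 2 of 52 members were called (3.85%), where 5.43% of all features were. Both were higher at 240 d, as were 2.29% of all features, while 3.13% were called lower. FKBP5 rose from 7.17 ± 6.29 to 73.3 ± 2.94 FPKM (SD, n = 3), a log2 fold change of 3.44 ± 0.74 with an adjusted p of 0.0442 by edgeR, and DNAJA2 rose by 0.88 ± 0.16 with an adjusted p of 0.0372. DNAJA1 had -1.30 ± 0.31 with an adjusted p of 0.0505, and HSPA1L -1.80 ± 0.52 with an adjusted p of 0.0709. No member was called without 120 d library 1 or 3 or without 240 d library 2 or 3, and 1 was called without 120 d library 2. Both calls changed direction under the listed ages, as the DNAJB1 ratio did. There the libraries labelled 240 d were set against those labelled 60 d. From 60 to 120 d and from 240 to 400 d edgeR called no member and no feature (0% of features), with 8 and 5 members and 970 and 1561 features at an unadjusted p under 0.05. DESeq2 called 0 members and 32 and 166 features.

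Markers of other cells also differed among the 60 d libraries. The 3 fibroblast markers matched summed to 2001 FPKM in library 1, 732 in library 2 and 601 in library 3, and the 3 erythroid markers to 1182, 364 and 219 FPKM. Each of these 6 genes was highest in library 1, the library with the highest DNAJB1, as were 39.8% of all features. The 2 adipocyte markers matched, PLIN1 and CIDEC, summed to 6.91, 39.7 and 13.0 FPKM and were highest in library 2, where DNAJB1 was lowest. Of all features, 28.2% were highest in library 2 and 32.0% in library 3. Other cell types differed, with 4 of 5 leukocyte markers highest in library 3 and 2 of 3 endothelial markers in library 2. At 400 d the sums were 201 to 468 FPKM for fibroblast, 57.3 to 101 for erythroid and 3.53 to 26.2 for adipocyte markers. No marker matched in these lists was at 0 in all libraries, and HBM, an erythroid globin, was at 0 in 400 d library 2. Their part in the levels of DNAJB1 was not tested.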

How the data were processed

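Total RNA of LD muscle was made into libraries with a NEB Next Ultra kit, which does not mark strand. According to the study's methods, the authors mapped the reads to Sscrofa10.2 with TopHat2 and estimated expression with Cufflinks. The submitters' processing notes name Bowtie 0.12.2, Cufflinks and a mouse build, which does not match the pig loci of the files. The authors deposited whole-number counts per feature, not normalized, and FPKM values, scaled by transcript length and library size. For DNAJB1 the FPKM given per CPM differed among libraries, as described above. The 12 columns of normalized counts were not used. Symbols came from a table of Ensembl identifiers and matched 11472 of 22658 features. Unmatched genes are not analysed here.

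From the FPKM, the mean, SD and log2 ratio (delta-method standard error) were computed for DNAJB1 without a test, and Pearson's r was computed after removing age means from log2(FPKM + 0.1). Each pair of ages (3 against 3 libraries) was tested with the edgeR 4.0.16 quasi-likelihood test in R 4.3.3, with TMM factors, for features that averaged 10 counts or more in 1 of the ages. Standard errors of edgeR changes are the change over the square root of F. DESeq2 1.42.0 was an alternative. The pipeline was tested on simulated data. Other steps ran in pandas 2.3.3 and numpy 2.4.6 under Python 3.11.15, and matplotlib 3.10.9 drew the figures. The ages of the published gene list, other units, filters and fits, and leaving out each library were tried as alternatives, and TMM CPM for the highest 60 d library was added after seeing the data.

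DNAJB1 and the gene lists were chosen with earlier results of these data known. Named were DNAJB1, members of those lists, the 15 features with the highest and the 5 with the lowest r, and the 5 heat shock members with the highest r without 60 d. Neighbouring genes were named by position. A further neighbour is not reported here. Depth was 9713813 to 13325327 counts per library, and p-values cover the spread between the 3 pigs of an age.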

Additional observations from a re-analysis of the deposited data

How the results depend on the processing

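Several results depended on the ages, on 1 library or on the tool, and the cause was not tested unless stated. Under the listed ages the DNAJB1 ratio was 0.33 from 60 to 120 d, 3.75 from 120 to 240 d, -1.41 from 240 to 400 d and 2.68 from 60 to 400 d. Under them the log2 fold change from 120 to 240 d was -0.82 for DNAJA2 and -1.40 for FKBP5. From 60 to 400 d it was 0.59 for HSPA5, 1.63 for DNAJA1, 1.72 for HSPH1, -0.75 for DNAJC7, 0.55 for DNAJB11, 0.93 for HSPA13, -0.25 for ST13, -0.75 for DNAJA2, -0.54 for HSPB6, 1.30 for DNAJB4, 1.39 for HSPA4L and 2.45 for HSPA1L. Calls from 120 to 240 d were then 238 features and 1 member. In TMM CPM the DNAJB1 ratio from 240 to 400 d was -0.016. Leaving out 1 library gave DNAJB1 ratios of -1.93 to -0.10 from 60 to 120 d, -2.57 to -2.11 from 120 to 240 d, -0.57 to -0.16 from 240 to 400 d and -4.61 to -2.78 from 60 to 400 d. It gave 0 to 1, 2 to 470, 0 to 2 and 0 to 1892 features called in that order, and 0, 0 to 2, 0 and 0 to 14 heat shock members. With 60 d library 1 left out, 14 members were called from 60 to 400 d, against 7 and 5 without libraries 2 and 3. Of all features, 1892, 1027 and 1117 were called in that order. From 120 to 240 d, 2 features were called without 120 d library 3 and 3 without 240 d library 3. The DESeq2 Wald test called 32, 2087, 166 and 2784 features, and 7 members from 120 to 240 d and 19 from 60 to 400 d. With no count filter 1 feature was called from 60 to 120 d, 4 from 240 to 400 d and 4 members from 120 to 240 d. All 12 libraries in 1 fit gave 1 member from 120 to 240 d and 3178 features from 60 to 400 d. At an adjusted p of 0.01 and a log2 change of at least 1, 2 features were called from 120 to 240 d and 0 from 60 to 400 d, with 0 members in either. Features with an r of at least 0.9 were 2 by Spearman's rho, 40 without centring, 47 without the 60 d libraries, 47 without the 2 libraries farthest from their age mean (the third 60 d library then has no deviation) and 14 to 42 when 1 library was left out. No paired analysis was possible because each sample is a single age and the libraries share no replicate numbers. Depth limits features with low counts, whereas DNAJB1 had at least 224 counts in each library.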

Other observations

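Many genes of the protein folding machinery of the endoplasmic reticulum were lower at the later labelled age, as the called HSP70 genes were. From 60 to 400 d edgeR called 7 of 13 tested (53.8%, against 14.1% of all features), all 7 lower at 400 d, where 7.18% of all features were called lower. None of the 7 was called once any 1 of the 400 d libraries was left out. Without 60 d library 1, 2 or 3, 7, 5 and 2 of the list were called, against 1892, 1027 and 1117 of all features. The 7 called with all libraries were HSPA5 and DNAJB11, described above, with CALR, a lectin chaperone that binds calcium, PDIA3 and PDIA6, which form disulphide bonds, HYOU1, the HSP110 of that compartment, and XBP1, a transcription factor of the unfolded protein response. CALR fell by 0.96 ± 0.19 on the log2 scale and HYOU1 by 1.40 ± 0.39. Within the 60 d libraries, 12 of the 13 were highest in library 3, the library in which most heat shock members were highest, and none in library 1. Of all features, 32.0% were highest in library 3 and 39.8% in library 1. The 2 lists share HSPA5, HSP90B1, DNAJB9, DNAJB11 and DNAJC3, so their likeness is partly that of the same genes. The r of the 13 with DNAJB1 had a median of -0.05.

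Immediate-early genes are transcribed soon after a stimulus. In the 60 d libraries, library 1 was the highest for 8 of 12 (66.7%, against 39.8% of all features) and library 3 for 3. FOS was at 726, 187 and 127 FPKM in libraries 1, 2 and 3 of 60 d, and EGR1 at 154, 84.4 and 99.6 FPKM. The highest r with DNAJB1 was 0.64, for IER3, and the median was 0.20. From 60 to 400 d 4 of 12 were called (33.3%, against 14.1% of all features), all lower at 400 d (7.18% of all features), namely ATF3, IER3, JUNB and MYC, and IER3 fell by 3.66 ± 0.55 on the log2 scale. No gene of this list was called without 400 d library 1 or 2, and 3 were called without library 3. Without 60 d library 1, 2 or 3 there were 3, 3 and 1, against 1892, 1027 and 1117 of all features. FOS was at 1.66, 266 and 213 FPKM in the 3 libraries of 400 d, so the spread among pigs of 1 age was not limited to 60 d. The cause of these differences was not tested.

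Markers of satellite cells, MYF5 and MYOD1, were both called lower at 400 d, as were 7.18% of all features, with a summed level of 46.5 to 74.4 FPKM at 60 d and 8.27 to 13.1 FPKM at 400 d. Among other markers, CD14 of 5 leukocyte, KDR of 3 endothelial, COL3A1 of 3 fibroblast and HBB and ALAS2 of 3 erythroid genes were called, each lower at 400 d, and neither of 2 adipocyte genes nor any of 3 skeletal muscle genes was, of which 0 and 2 had an unadjusted p under 0.05 and 0 and 1 were called by DESeq2. The 2 skeletal muscle genes were DES and ACTA1. ACTA1 was at 0 in all libraries of 60 d and in 400 d libraries 1 and 2, so its p says nothing of muscle content. Without 400 d library 1 or 2 none of the markers in this paragraph was called, and 1 was without library 3. Of all features, 8, 0 and 148 were called without 400 d library 1, 2 or 3. Without 60 d library 1, 2 or 3, 6, 2 and 5 markers were called, against 1892, 1027 and 1117 of all features. Every gene called in these lists had the opposite sign under the listed ages, though ALAS2 then came to only 0.026 on the log2 scale. The listed contrast compared the libraries labelled 400 d with those labelled 120 d.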
